A study of Mus musculus with 25 samples.

Results

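Mast cell genes in white adipose tissue were followed through 8 transcripts of the mast cell, chosen as a list of symbols. They were Cpa3, Cma1, Mcpt4 and Tpsb2, which encode granule proteases, Kit, the receptor for stem cell factor, Ms4a2 and Fcer1a, which encode chains of the high-affinity IgE receptor, and Hdc, the enzyme that makes histamine from histidine. All 8 were found among the 54752 gene IDs of the count files. RNA-seq was performed on epididymal (eWAT) and inguinal (iWAT) white fat of male C57BL/6N mice in 6 groups, which in each depot were WT mice on normal chow diet (ND), WT mice on high-fat diet (HFD, with 60% of calories from fat) and Acod1-/- mice on HFD. Acod1, the gene for the enzyme that makes itaconate, was deleted in the whole body of the Acod1-/- mice, which were compared with WT littermates. The mice were 5 weeks old when HFD began, and it lasted 16 weeks, except that iWAT Acod1-/- libraries 2 and 3 were labelled 17 and 18 weeks. The eWAT groups held 4 ND, 5 WT HFD and 5 Acod1-/- HFD libraries, and the iWAT groups held 3, 5 and 3. Acod1-/- mice on ND were not analysed here, so the effect of the deletion was seen only under HFD, and the labels do not say whether an eWAT and an iWAT library of the same number came from the same mouse. The study's methods count as many mice as libraries in each group, all from 1 experiment.

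Mast cells arise from bone marrow progenitors, mature in tissues under the control of KIT and its ligand, and store proteases, histamine and heparin proteoglycan in granules that are released when antigen crosslinks IgE on their surface. In mice the connective tissue type of mast cell carries carboxypeptidase A3 (Cpa3), the chymases encoded by Cma1 and Mcpt4, and the tryptase encoded by Tpsb2, whereas the mucosal type carries the chymases encoded by Mcpt1 and Mcpt2. Mast cells are a scarce, normal resident of fat, where they sit near vessels and connective tissue. In RNA from whole tissue, fewer cells of a type and less RNA per cell cannot be told apart.

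Between 31405063 and 52335623 reads per library were counted on genes. Acod1 itself lay between 0 and 0.213 CPM (read counts scaled to the size of the library, the unit of level used unless FPKM is named) in all 25 libraries, too low in WT tissue to check the genotype labels. The adipocyte gene Adipoq was high in every library (1052 CPM or more), but some libraries carried RNA of neighbouring tissue. The epididymis gene Crisp1 reached 6571 CPM in eWAT ND library 2 and 940 CPM in eWAT Acod1-/- library 5, the keratinocyte gene Krt14 reached 427 CPM in iWAT Acod1-/- library 2, and all 3 iWAT ND libraries held lymphocyte RNA (4 lymphocyte genes, Ms4a1, Cd79a, Cd3e and Cr2, summed to 326 to 454 CPM), against at most 36.1 CPM in any other library. Library numbers in the file headers fell into 2 ranges. All 7 ND libraries and 1 library of each HFD-fed group lay in one range and the other 14 HFD libraries in the other, so the diet comparisons and this range nearly coincided.

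In eWAT of WT mice the granule proteases were higher on HFD. Mcpt4, the chymase of connective tissue mast cells, was 1.76, 1.60, 0.682 and 1.29 CPM in the ND libraries and 45.8, 39.8, 3.94, 45.8 and 3.02 CPM in WT HFD libraries 1 to 5. Tpsb2, the tryptase, was 3.14, 2.08, 0.808 and 1.25 CPM on ND and 52.3, 37.1, 5.56, 42.9 and 3.15 CPM on HFD. In both genes WT HFD libraries 1, 2 and 4 stood well above all others, libraries 3 and 5 lay close to the ND libraries, and no HFD library fell below the highest ND library, although for Tpsb2 this held by a narrow margin and not when CPM were taken without TMM scaling (trimmed mean of M-values, a correction for library composition). Cma1, the other chymase, was 2.98, 1.57, 0.278 and 1.13 CPM on ND and 39.9, 29.2, 3.57, 36.1 and 2.16 CPM on HFD. Cpa3, the carboxypeptidase that trims peptides such as toxins and endothelin, was 2.15, 0.930, 0.328 and 0.663 CPM on ND and 33.4, 25.1, 1.92, 20.6 and 1.03 CPM on HFD. For these 2 genes WT HFD library 5, and for Cpa3 also library 3, lay within the range of the ND libraries.

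Of the 6 members that passed the filter on low counts (a mean of at least 1 CPM over the 14 eWAT libraries), 4 rose on HFD at an adjusted p under 0.1 in edgeR's quasi-likelihood test with Benjamini-Hochberg adjustment over all 14936 genes tested, the study's own threshold. In that comparison 51.8% of all genes tested were called, 24.8% as higher and 26.9% as lower. The log2 fold change was 4.37 for Mcpt4 (SE 0.86, adjusted p = 0.00185), 3.95 for Tpsb2 (SE 0.83, adjusted p = 0.00276), 3.89 for Cma1 (SE 0.98, adjusted p = 0.00725) and 4.0 for Cpa3 (SE 1.08, adjusted p = 0.0103). The median over the 6 members was 3.92, against -0.04 over all genes tested. Each of the 6 had a mean of at least 1.02 CPM in every eWAT group, so none passed the filter through the WT HFD group alone. In an exact two-sided permutation test of the difference in mean CPM, which cannot go below p = 0.0159 with 5 against 4 libraries, p was 0.0159 for Mcpt4 and Tpsb2, 0.0317 for Cma1 and 0.0635 for Cpa3. The 4 ND libraries and WT HFD library 5 shared 1 header range. With the range as a term the 4 log2 fold changes ranged from 4.01 to 4.99 and stayed under the threshold (adjusted p from 0.0203 to 0.0427), but the only WT HFD library in the range of the ND libraries was library 5, the lowest of its group in all 4 proteases.

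**Figure D1:**
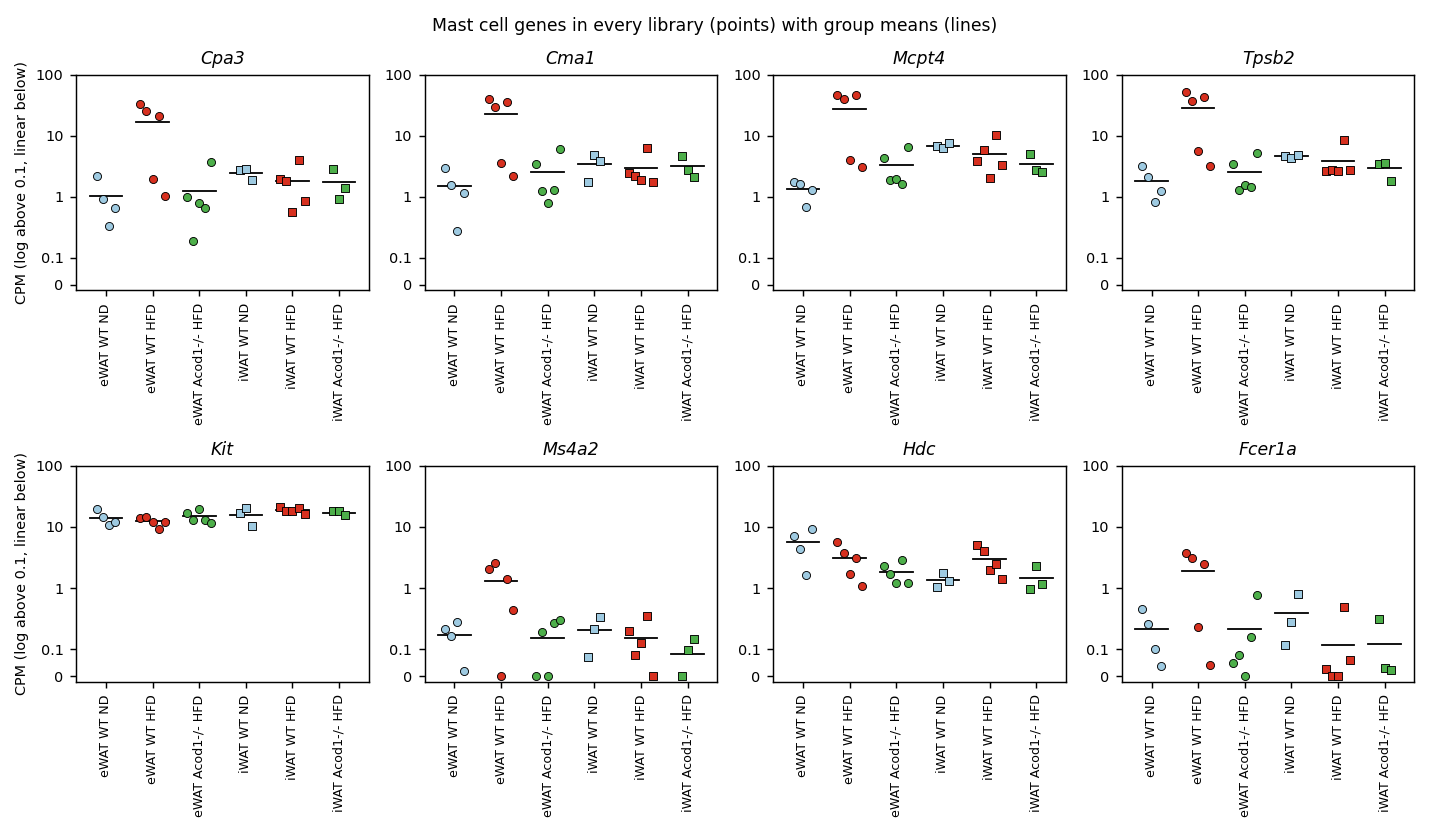
CPM of each of the 8 mast cell genes in the 25 libraries, with points for libraries (circles eWAT, squares iWAT), lines for group means and an axis that is logarithmic above 0.1 CPM and linear below. In eWAT WT HFD, 3 of 5 libraries stand at 20.6 CPM or more for the 4 proteases and the other 2 lie near the ND and Acod1-/- libraries, whereas Kit varies little between 9.12 and 21 CPM over all libraries.

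HFD-fed Acod1-/- mice had lower protease transcripts in eWAT than HFD-fed WT mice. Mcpt4 was 4.37, 1.88, 1.94, 1.63 and 6.59 CPM in Acod1-/- libraries 1 to 5, and Tpsb2 was 3.47, 1.27, 1.53, 1.45 and 5.21 CPM. Cma1 was 3.44, 1.23, 0.792, 1.29 and 6.13 CPM, and Cpa3 was 0.973, 0.192, 0.792, 0.643 and 3.71 CPM. Library 5 was the highest of its group for all 4 genes, and the groups overlapped in each of them. WT HFD library 5 lay within the range of the Acod1-/- libraries for all 4 genes, and library 3 for all but Tpsb2. The same 4 of 6 tested members fell in edgeR's test, while 19.9% of all 14936 genes were called, 9.13% as higher and 10.8% as lower. The log2 fold change (Acod1-/- minus WT) was -3.44 for Tpsb2 (SE 0.74, adjusted p = 0.0144), -3.07 for Mcpt4 (SE 0.73, adjusted p = 0.0195), -3.68 for Cpa3 (SE 0.97, adjusted p = 0.0290) and -3.10 for Cma1 (SE 0.86, adjusted p = 0.0351). The median over the 6 members was -3.08, against 0.04 over all genes tested. Both eWAT comparisons used the same 5 WT HFD libraries, so they are not independent of each other.

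The exact permutation test on CPM gave p = 0.0238 for Tpsb2, 0.0556 for Cpa3, 0.0635 for Cma1 and 0.0714 for Mcpt4, with 0.00794 the smallest p that 5 against 5 libraries allow. Within the header range that held WT HFD libraries 1 to 4 and Acod1-/- libraries 1 to 4, the log2 fold changes of the 4 proteases ran from -3.78 to -4.92 (adjusted p from 0.00338 to 0.00627, edgeR). This subset leaves out WT HFD library 5 and Acod1-/- library 5, for all 4 proteases the lowest and the highest of their groups. A larger difference was therefore built into it. Without the 2 eWAT libraries richest in epididymis RNA, ND library 2 and Acod1-/- library 5, the 4 log2 fold changes ran from -3.50 to -4.64 (adjusted p from 0.00699 to 0.0161). Here too the highest Acod1-/- library was left out. Leaving out any 1 of the 14 eWAT libraries kept all 4 proteases under the threshold in both eWAT comparisons.

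**Figure D2:**
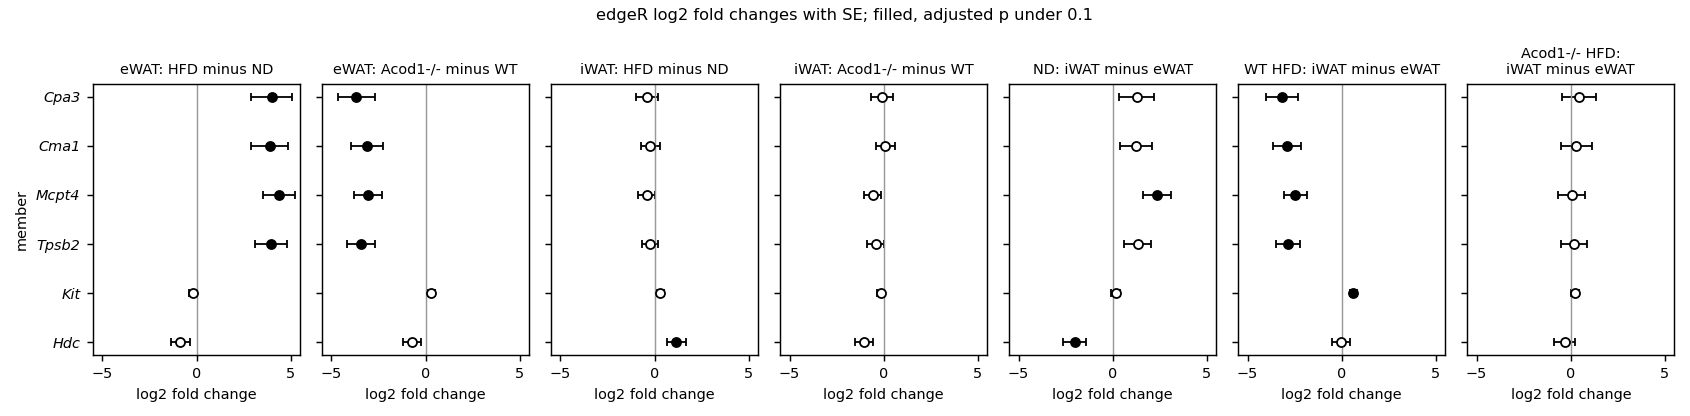
Log2 fold changes from edgeR (points) with standard errors derived from the test's F statistic (bars) for the 6 members tested, in the 7 comparisons between pairs of groups, with filled points for an adjusted p under 0.1. The 4 proteases are higher on HFD in eWAT, lower in Acod1-/- than in WT eWAT, lower in iWAT than in eWAT of HFD-fed WT mice, and unfilled in iWAT.

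The stretches of DNA before the start of these genes are shown because 4 of the members moved together. RefSeq promoters (GRCm38.p6, from 250 bases before to 50 bases after the start) were held for 7 of the 8 members, all but Tpsb2. They were searched on both strands for the letters GATA with A or T before and A or G after them, the motif bound by GATA factors such as GATA2, a regulator of mast cell genes. The 250 bases before the start are given for 3 of the proteases, both IgE receptor chains and Kit, 5′ to 3′ on the gene's own strand, with matches in capitals (a match on the other strand reads TATC between its outer letters).
Cpa3 (chr3:20242182-20242431, minus strand): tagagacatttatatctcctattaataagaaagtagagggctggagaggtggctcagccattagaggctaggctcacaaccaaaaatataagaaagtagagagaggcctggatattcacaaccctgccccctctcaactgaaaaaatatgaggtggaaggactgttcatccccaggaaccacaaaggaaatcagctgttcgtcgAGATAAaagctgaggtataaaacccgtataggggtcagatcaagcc
Cma1 (chr14:55944676-55944925, minus strand): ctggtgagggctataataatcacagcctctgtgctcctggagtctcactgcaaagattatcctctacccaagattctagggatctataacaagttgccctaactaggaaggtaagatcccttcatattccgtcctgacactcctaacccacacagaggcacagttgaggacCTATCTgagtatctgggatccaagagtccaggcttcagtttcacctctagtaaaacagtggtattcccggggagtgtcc
Mcpt4 (chr14:56062311-56062560, minus strand): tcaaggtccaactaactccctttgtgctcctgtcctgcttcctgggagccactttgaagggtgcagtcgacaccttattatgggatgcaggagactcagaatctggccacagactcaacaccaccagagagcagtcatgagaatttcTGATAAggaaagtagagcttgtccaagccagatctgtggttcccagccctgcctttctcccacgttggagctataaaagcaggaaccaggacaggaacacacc
Ms4a2 (chr19:11623720-11623969, minus strand): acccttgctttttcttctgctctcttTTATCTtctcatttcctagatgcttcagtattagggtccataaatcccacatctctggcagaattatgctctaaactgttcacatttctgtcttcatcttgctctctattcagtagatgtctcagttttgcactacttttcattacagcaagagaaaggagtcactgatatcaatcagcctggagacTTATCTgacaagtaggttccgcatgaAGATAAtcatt
Fcer1a (chr1:173227230-173227479, minus strand): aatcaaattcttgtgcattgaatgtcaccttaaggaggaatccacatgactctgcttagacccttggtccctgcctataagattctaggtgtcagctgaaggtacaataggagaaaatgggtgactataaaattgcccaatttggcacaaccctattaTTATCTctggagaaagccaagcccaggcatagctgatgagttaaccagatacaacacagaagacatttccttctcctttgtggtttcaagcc
Kit (chr5:75574737-75574986, plus strand): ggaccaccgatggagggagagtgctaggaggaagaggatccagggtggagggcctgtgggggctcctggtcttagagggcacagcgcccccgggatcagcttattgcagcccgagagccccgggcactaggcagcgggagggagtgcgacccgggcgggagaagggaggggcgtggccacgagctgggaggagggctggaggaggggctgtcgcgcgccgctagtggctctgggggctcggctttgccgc
Of the 7 members, 6 held a match, as did 29.8% of all 32851 promoters in the table. With the first transcribed base as 0, the match began at -46 in Cpa3, -79 in Cma1, -103 in Mcpt4, -92 in Fcer1a and -221 in Hdc, and 3 matches in Ms4a2 began at -224, -37 and -11. Kit had none in either of its 2 promoter entries. The letters TATAAA, searched on the gene's strand, began at -31 in Cpa3, -32 in Mcpt4 and -125 in Fcer1a and occurred in 8.32% of all promoters. An E-box of the letters CANGTG with T or C for N (both strands), of the kind bound by MITF, was found only in Fcer1a among the 7 and in 20.4% of all promoters. These matches describe the letters and no binding was measured.

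Expressed per length, the makeup of the 4 proteases was compared between high and low libraries. Their summed FPKM (reads scaled by cDNA length and library size, as deposited) was 144.1, 108.9, 11.2, 111.3 and 7.07 in WT HFD eWAT libraries 1 to 5, and lay between 1.56 and 17.3 in the other 9 eWAT libraries. In the 5 WT HFD libraries Mcpt4 made up 34.0% ± 2.90 of that sum (SD, n = 5), Cma1 27.5% ± 1.06, Tpsb2 25.5% ± 3.0 and Cpa3 12.9% ± 3.26. The shares in eWAT Acod1-/- were 40.1% ± 4.65, 28.5% ± 5.79, 21.8% ± 1.97 and 9.56% ± 4.55 in the same order (SD, n = 5). Over 28 exact permutation tests of these shares (4 genes in 7 comparisons) the lowest p was 0.0476, for the 3.73 percentage points by which Tpsb2 fell short in Acod1-/- eWAT, and no adjusted p was under 0.457. A share rests on few reads where the sum is low (83 reads for all 4 genes in ND library 3).

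**Figure D3:**
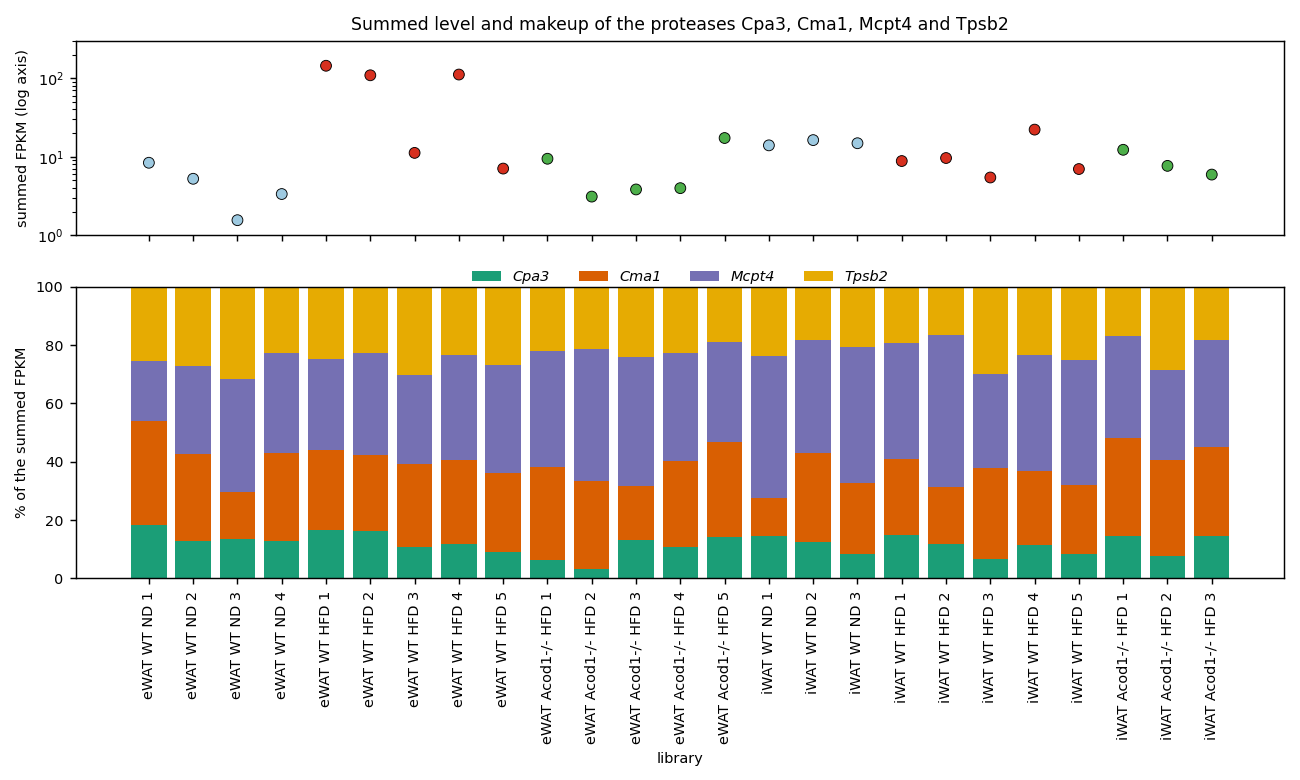
Summed FPKM of Cpa3, Cma1, Mcpt4 and Tpsb2 in each library (upper panel, logarithmic axis) and the percent of that sum from each gene (lower panel, stacked bars). The sum spans 1.56 to 144.1 FPKM over the 25 libraries while Mcpt4 or Cma1 remains the largest share in every one.

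The chains of the IgE receptor were rarer and followed the same libraries. Fcer1a, the chain that binds IgE, was 3.69, 3.05, 0.229, 2.51 and 0.0403 CPM in WT HFD eWAT, 0.449, 0.255, 0.101 and 0.0390 CPM in ND and 0.0499, 0.0768, 0, 0.161 and 0.763 CPM in Acod1-/- eWAT. Ms4a2, the chain that amplifies the signal, was 2.06, 2.55, 0, 1.43 and 0.444 CPM in WT HFD, 0.215, 0.164, 0.278 and 0.0195 CPM in ND and 0, 0.192, 0, 0.268 and 0.305 CPM in Acod1-/- eWAT. WT HFD libraries 1, 2 and 4 were again the highest of the 14, and the groups overlapped. Neither gene reached the filter of 1 CPM, so each was compared by the exact two-sided permutation test on mean CPM, without adjustment. WT HFD exceeded ND by 1.69 CPM for Fcer1a (p = 0.175, exact) and by 1.13 CPM for Ms4a2 (p = 0.0952, exact), and Acod1-/- fell short of WT HFD by a difference of -1.69 CPM for Fcer1a (p = 0.0794, exact) and -1.14 CPM for Ms4a2 (p = 0.0714, exact), none of them under 0.05. Without WT HFD library 3 the p for Ms4a2 was 0.0286 on HFD and 0.0159 for genotype (exact), and without library 5 that for Fcer1a was 0.0317 for genotype (exact). Library 3 was the lowest WT HFD library for Ms4a2 and library 5 for Fcer1a. No other single library left out brought p under 0.05 for either gene in these comparisons. With no filter on low counts edgeR called Fcer1a higher on HFD in eWAT (log2 fold change 3.17, adjusted p = 0.0942) and lower in iWAT than in eWAT of HFD-fed WT mice (-4.01, adjusted p = 0.0863). It did not call Fcer1a for genotype in eWAT (-3.15, adjusted p = 0.136), nor Ms4a2 on HFD (2.94, adjusted p = 0.129) or for genotype (-3.10, adjusted p = 0.158). In iWAT both genes stayed at or below 0.797 CPM in all 11 libraries, and differences at that level were not detectable at this depth (20 reads or fewer in 10 of the 11 libraries for Fcer1a).

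Kit did not follow the proteases. It was 14.2 ± 4.15 CPM in ND (SD, n = 4), 12.3 ± 2.12 in WT HFD (n = 5) and 15 ± 3.32 in Acod1-/- (n = 5) eWAT, and the highest of the 5 WT HFD libraries was 1.58 times the lowest, against 15.1 times for Mcpt4 and 32.5 times for Cpa3. Its log2 fold change was -0.21 on HFD (SE 0.21, adjusted p = 0.440) and 0.28 in Acod1-/- against WT (SE 0.20, adjusted p = 0.370). KIT is also carried by melanocytes and other cells, and a list of 5 melanocyte genes summed to 2.36 to 6.80 CPM in eWAT. Tyr was at 0 in all 14 eWAT libraries, while Dct, the only gene of that list tested, was higher in Acod1-/- than in WT (0.90, adjusted p = 0.0991). The part of melanocyte RNA in the level of Kit was not tested. On the deposited FPKM scale Kit averaged 1.40 in WT HFD eWAT, below Fcer1a (1.99) and far below Mcpt4 (25.8), Cma1 (21.1), Tpsb2 (18.3) and Cpa3 (11.3), while in ND eWAT it averaged 1.67 and was the highest of the 8, followed by Cma1 (1.45), Mcpt4 (1.26) and Tpsb2 (1.21), whose ranges over the 4 libraries overlapped with that of Kit.

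The mean of Hdc was not highest in WT HFD eWAT. In eWAT it was 7.09, 4.39, 1.62 and 9.19 CPM on ND, 5.73, 3.74, 1.69, 3.14 and 1.09 CPM in WT HFD and 2.30, 1.73, 1.23, 2.84 and 1.2 CPM in Acod1-/-. ND libraries 4 and 1 held the 2 highest values, and the groups overlapped. Within WT HFD, libraries 1, 2 and 4 were the highest, as for the proteases. The comparisons were not called, with log2 fold changes of -0.86 on HFD (SE 0.52, adjusted p = 0.192) and -0.73 in Acod1-/- against WT (SE 0.49, adjusted p = 0.351). The first of these came under the threshold without ND library 3 (-1.16, adjusted p = 0.0721) or without WT HFD library 1 (-1.21, adjusted p = 0.0818) and with the header range as a term (-1.92, adjusted p = 0.0717).

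In iWAT the proteases did not pass the test on HFD. Mcpt4 was 6.72, 6.25 and 7.53 CPM on ND and 3.81, 5.88, 2.0, 10.1 and 3.27 CPM in WT HFD, and Tpsb2 was 4.68, 4.31 and 4.85 CPM on ND and 2.66, 2.71, 2.66, 8.52 and 2.73 CPM in WT HFD. WT HFD library 4 was the highest of all iWAT libraries for both genes, and the other 4 WT HFD libraries lay below every ND library. Cma1 was between 1.74 and 4.88 CPM on ND and 1.77 and 6.37 CPM in WT HFD, and Cpa3 between 1.87 and 2.81 CPM on ND and 0.557 and 3.94 CPM in WT HFD. The 4 log2 fold changes lay between -0.42 and -0.22 (SE from 0.43 to 0.58, adjusted p from 0.479 to 0.742). Without WT HFD library 4, Tpsb2 (-0.76, adjusted p = 0.0541) and Mcpt4 (-0.86, adjusted p = 0.0940) came under the threshold as lower on HFD. Of the 6 members tested, only Hdc was called, while 50.1% of 14801 genes were called in this comparison, 25.9% as higher and 24.2% as lower.

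Hdc was 1.03, 1.78 and 1.3 CPM on ND and 5.11, 4.06, 2.0, 2.49 and 1.38 CPM in WT HFD iWAT. It was above every ND library in 4 of 5 WT HFD libraries, with a log2 fold change of 1.16 (SE 0.48, adjusted p = 0.0747, edgeR). The call was lost without any 1 of ND libraries 1, 2 or 3 or WT HFD libraries 1 or 2 (adjusted p from 0.104 to 0.200) and with the header range as a term (0.40, adjusted p = 0.636), and the exact permutation test gave p = 0.0714. Kit was 15.8 ± 4.94 CPM on ND (SD, n = 3) and 18.9 ± 2.03 in WT HFD (n = 5), with a log2 fold change of 0.29 (SE 0.19, adjusted p = 0.231) that came under the threshold only without ND library 2 (0.49, adjusted p = 0.0828). The ND libraries of iWAT were those with lymphocyte RNA, where the 4 lymphocyte genes summed to 326 to 454 CPM against 2.26 to 36.1 CPM in WT HFD, so that diet and lymph node RNA cannot be told apart in this depot.

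Acod1-/- and WT iWAT on HFD gave no call among the members. Mcpt4 was 4.92, 2.69 and 2.55 CPM and Tpsb2 3.43, 3.55 and 1.82 CPM in the 3 Acod1-/- libraries, within or just below the range of the WT libraries. The log2 fold changes ran from -1.05 for Hdc (SE 0.48, adjusted p = 0.302) to 0.08 for Cma1 (SE 0.50, adjusted p = 0.962). In edgeR's test 0 of 6 members and 0% of the 14801 genes passed, 2468 genes had an unadjusted p under 0.05 with no member among them, and DESeq2 called 1072 genes and 0 members.

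The depots were compared as iWAT minus eWAT in 1 fit of all 25 libraries. On ND, where 31.7% of 15034 genes were called, 14.2% as higher and 17.5% as lower in iWAT, Mcpt4 was higher in iWAT (log2 fold change 2.35, SE 0.74, adjusted p = 0.0244) and Hdc lower (-2.02, SE 0.60, adjusted p = 0.0174). All 3 iWAT ND libraries were above all 4 eWAT ND libraries for Mcpt4 and also for Tpsb2, whose log2 fold change of 1.34 did not pass (SE 0.72, adjusted p = 0.186). The exact test of the mean CPM reached its smallest possible value of p = 0.0571 for both genes. The 4 lymphocyte genes summed to 326 to 454 CPM in iWAT ND and 1.42 to 3.68 CPM in eWAT ND. Depot and lymph node RNA therefore cannot be told apart on ND. In HFD-fed WT mice, where 18.6% of genes were called, 7.75% as higher and 10.8% as lower in iWAT, the order turned. All 4 proteases were lower in iWAT than in eWAT, by log2 fold changes of -3.17 for Cpa3 (SE 0.84, adjusted p = 0.0157), -2.92 for Cma1 (SE 0.75, adjusted p = 0.0132), -2.46 for Mcpt4 (SE 0.63, adjusted p = 0.0131) and -2.87 for Tpsb2 (SE 0.63, adjusted p = 0.00506). The groups overlapped in each of the 4, since eWAT WT HFD libraries 3 and 5 were at the level of iWAT, and the exact permutation test on CPM gave p from 0.0556 to 0.119.

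Kit was 21, 18.3, 18.4, 20.6 and 16.0 CPM in iWAT and 14.1, 14.4, 11.9, 9.12 and 11.9 CPM in eWAT of these mice. Every iWAT library was above every eWAT library, with a log2 fold change of 0.62 (SE 0.19, adjusted p = 0.0350, edgeR, and p = 0.00794, the smallest the exact permutation test allows). Without eWAT WT HFD library 4 the adjusted p was 0.114. In HFD-fed Acod1-/- mice 0 of 6 members differed between depots at an adjusted p under 0.1 in edgeR or DESeq2, none had an unadjusted p under 0.05, and 3.81% of genes were called, 1.8% as higher and 2.01% as lower in iWAT. The log2 fold changes there lay between -0.33 and 0.43 with SE up to 0.90.

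The HFD response itself differed between depots. In the test of diet by depot, where 29% of genes were called, 14% as lower and 15% as higher in iWAT, the response in iWAT minus that in eWAT was -4.44 for Cpa3 (SE 1.25, adjusted p = 0.0143), -4.14 for Cma1 (SE 1.12, adjusted p = 0.0114), -4.81 for Mcpt4 (SE 0.98, adjusted p = 0.00137) and -4.21 for Tpsb2 (SE 0.95, adjusted p = 0.00329) on the log2 scale, and 1.99 for Hdc (SE 0.75, adjusted p = 0.0615). The value for Kit was 0.46 (SE 0.30, adjusted p = 0.284). The diet by depot test used the iWAT ND libraries that held lymphocyte RNA, and the part of that RNA was not tested. For the genotype by depot test the 4 proteases gave 2.50 to 3.60 (SE from 0.91 to 1.2). Their unadjusted p lay between 0.00289 and 0.0122, none passed after adjustment (adjusted p from 0.307 to 0.372), and 1 of 15034 genes, or 0.00665%, was called. Cpa3 was called with the replicate number as a block (3.98, adjusted p = 0.0565), Tpsb2 with DESeq2 (3.06, adjusted p = 0.0903), and both without eWAT Acod1-/- library 5 (4.58 and 3.50, adjusted p = 0.0925 and 0.0937). That library was the highest of its group for both genes, and the fit without it called 224 of 15042 genes. An effect of the genotype on the proteases that differs between depots was therefore not shown by the edgeR test of all libraries, although eWAT passed and iWAT did not.

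Ordered by group mean, Mcpt4 ran from 27.7 ± 22.2 CPM in eWAT WT HFD (SD, n = 5) through 6.83 ± 0.652 in iWAT ND (n = 3), 5.02 ± 3.19 in iWAT WT HFD (n = 5), 3.39 ± 1.33 in iWAT Acod1-/- (n = 3) and 3.28 ± 2.15 in eWAT Acod1-/- (n = 5) to 1.33 ± 0.476 in eWAT ND (n = 4). Neighbouring groups in this order overlapped throughout, and the iWAT ND libraries lay between the 3 high and the 2 low eWAT WT HFD libraries. The same order of the outer groups, eWAT WT HFD highest and eWAT ND lowest, held for all 4 proteases.

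Other genes of the mast cell were read from a list of 20. In WT HFD eWAT libraries 1 to 5, Mrgprb1, a receptor of the Mrgpr family, was 7.48, 5.32, 0.756, 4.54 and 0.323 CPM, and Mrgprb2, the receptor through which basic secretagogues activate mouse mast cells, was 3.32, 2.25, 0.0458, 1.58 and 0.101 CPM. Tpsab1, the other tryptase, was 2.96, 1.19, 0.114, 1.35 and 0.343 CPM, Slc18a2, which loads histamine and serotonin into vesicles, was 2.34, 1.38, 0.229, 2.41 and 0.0403 CPM, and Tph1, which starts serotonin synthesis, was 1.47, 0.897, 0.0687, 0.752 and 0 CPM. Each of these 5 genes was highest in libraries 1, 2 and 4, as the proteases were, which does not speak for the other genes of the list. The mucosal chymases Mcpt1 and Mcpt2 did not exceed 0.0455 CPM in any of the 25 libraries and Mcpt9 was at 0 in all, where a count of 0 allows up to 3 reads per library.

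Of this list 7 genes passed the filter in eWAT. Mrgprb1 did so only through WT HFD, with a mean of 3.68 CPM there against 0.293 CPM in ND and 0.231 CPM in Acod1-/-, so its values are a description. Of the other 6 genes, Hpgds (log2 fold change 3.89, adjusted p = 0.000886), Mitf (0.99, adjusted p = 0.0139) and Il1rl1 (0.80, adjusted p = 0.0518) rose on HFD and Gata2 fell (-1.35, adjusted p = 0.00102), where 51.8% of all genes were called. Ndst2 (-0.15, adjusted p = 0.610) and Srgn (0.38, adjusted p = 0.251) were not called. Hpgds makes prostaglandin D2 and Mitf is a transcription factor, and both are carried by macrophages as well, as Il1rl1, the IL-33 receptor, is by group 2 innate lymphoid cells. In Acod1-/- against WT eWAT, Hpgds (-3.16, adjusted p = 0.0110), Mitf (-0.95, adjusted p = 0.0357) and Il1rl1 (-0.76, adjusted p = 0.0991) fell and none of the 6 rose, where 19.9% of all genes were called. In iWAT, Hpgds (1.25, adjusted p = 0.0391) and Mitf (0.53, adjusted p = 0.0430) rose and Srgn, the core protein of granule proteoglycan, fell (-0.52, adjusted p = 0.0478) among 6 tested on HFD, a share near the 50.1% of all genes called, and 0 of 6 were called for genotype.

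**Figure D4:**
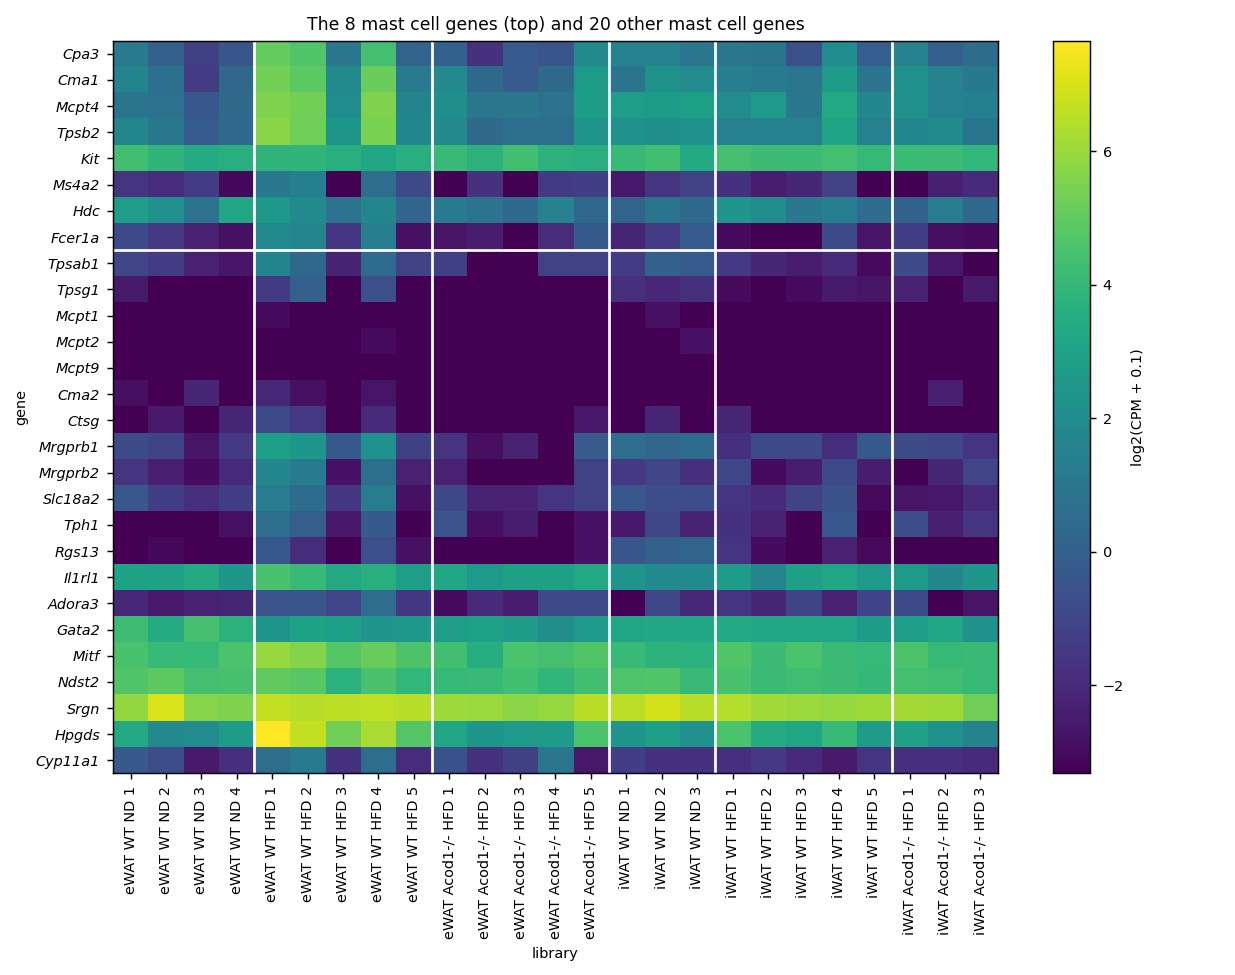
Level of the 8 mast cell genes (above the white line) and 20 other mast cell genes in each library, as log2(CPM + 0.1), with white lines between groups. In eWAT WT HFD, libraries 1, 2 and 4 are brighter for the proteases, the IgE receptor chains, Tpsab1, Mrgprb1 and Mrgprb2, while Kit does not stand out in these 3 libraries.

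Signalling genes downstream of the IgE receptor and KIT changed in eWAT too, in a list of 15 that passed the filter in full. On HFD 9 rose and 3 fell, where 51.8% of all genes were called, with a median of 1.27 against -0.04 over all genes. The largest rises were in Lat2 (3.54, adjusted p = 0.00178), an adaptor of mast and myeloid cells, and Fcer1g (3.02, adjusted p = 0.000167), the chain shared by the IgE receptor and other Fc receptors, followed by Btk (2.47, adjusted p = 0.00409). In Acod1-/- against WT eWAT 9 fell and 0 rose, where 19.9% of all genes were called, with a median of -1.01 against 0.04, and Fcer1g fell by 2.17 (adjusted p = 0.0110) on the log2 scale. Most of these genes are shared with macrophages or lymphocytes. In iWAT, where 50.1% of all genes were called, 2 rose on HFD, Fcer1g (1.3, adjusted p = 0.00806) and Kitl (0.60, adjusted p = 0.00352), the gene for the KIT ligand, and 11 fell, among them Lat (-3.59, adjusted p = 0.00200) and Btk (-2.05, adjusted p = 0.000190), in the comparison whose ND libraries all held lymphocyte RNA. None of the 15 passed for genotype in iWAT.

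Of 8 genes for handling histamine 4 were tested. Hnmt, which breaks histamine down, fell on HFD in eWAT (-0.65, adjusted p = 0.00482) and was higher in Acod1-/- than in WT (0.53, adjusted p = 0.0326). No other gene of the 4 was called in these 2 comparisons, where 51.8% and 19.9% of all genes were called. Hnmt was 32.9, 31.2, 25.7, 27.6 and 31.0 CPM in WT HFD, below all 4 ND libraries (37.8 to 56.6 CPM). In iWAT, where 50.1% of all genes were called on HFD, Slc22a3, a transporter of histamine and other amines, rose (1.14, adjusted p = 0.000555) and Hrh2, a histamine receptor, fell (-0.93, adjusted p = 0.0319). The ND libraries of that comparison all held lymphocyte RNA, whose part was not tested. Hrh1, another receptor, passed the filter only through WT HFD (mean 1.51 CPM, against 0.507 in ND and 0.892 in Acod1-/-).

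In eWAT, markers of some other cells moved with the proteases. Over all genes tested in eWAT, 24.8% were called higher on HFD and 10.8% lower in Acod1-/-. The macrophage list (Adgre1, Cd68, Csf1r, Lyz2 and Mrc1) had all 5 genes higher on HFD and all 5 lower in Acod1-/- eWAT. Its summed CPM was 3199, 2345, 1262, 2756 and 997 in WT HFD eWAT libraries 1 to 5, 363 to 695 in ND and 296 to 1092 in Acod1-/-, where library 5 was the highest as it was for the proteases. In iWAT the macrophage list was highest in WT HFD library 4 (981 CPM), also the library highest in Mcpt4 and Tpsb2. On HFD in iWAT, 4 of 5 macrophage genes were called higher, against 25.9% of all genes, while no protease was called. The neutrophil list summed to 23.6 to 51.6 CPM in WT HFD eWAT, 1.29 to 3.99 in ND and 3.0 to 39 in Acod1-/-, and did not follow libraries 1, 2 and 4 (23.6, 35.7 and 51.6 CPM, against 34.1 and 29.3 CPM in libraries 3 and 5). The fibroblast and progenitor list had 3 of 4 genes higher on HFD and 2 of 4 lower in Acod1-/- eWAT. Its sum was 1250, 711, 582, 934 and 628 CPM in WT HFD eWAT libraries 1 to 5 and 245 to 404 CPM in ND, and Acod1-/- library 5 (620 CPM) and iWAT WT HFD library 4 (1182 CPM) were the highest of their group and depot. In iWAT 3 of 4 genes of this list were higher on HFD, unlike the proteases. The endothelium list (Pecam1, Cdh5, Kdr and Tie1) went the other way in eWAT, with 4 of 4 genes lower on HFD, against 26.9% of all genes. None of them was called in Acod1-/-. Endothelium summed to 258, 485, 453, 301 and 467 CPM in WT HFD eWAT libraries 1 to 5 and 554 to 840 CPM in ND. The basophil list of 5 genes summed to 29.4 to 56.3 CPM in WT HFD eWAT, 11.7 to 19.6 in ND and 18.4 to 22.3 in Acod1-/-. Its only tested gene in eWAT, Il3ra, rose on HFD (1.29, adjusted p = 0.000770) and fell in Acod1-/- (-0.91, adjusted p = 0.0144), while Mcpt8, a basophil protease, was at 0 in all 10 HFD-fed eWAT libraries. The part of these cell types in the protease result was not tested.

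**Figure D5:**
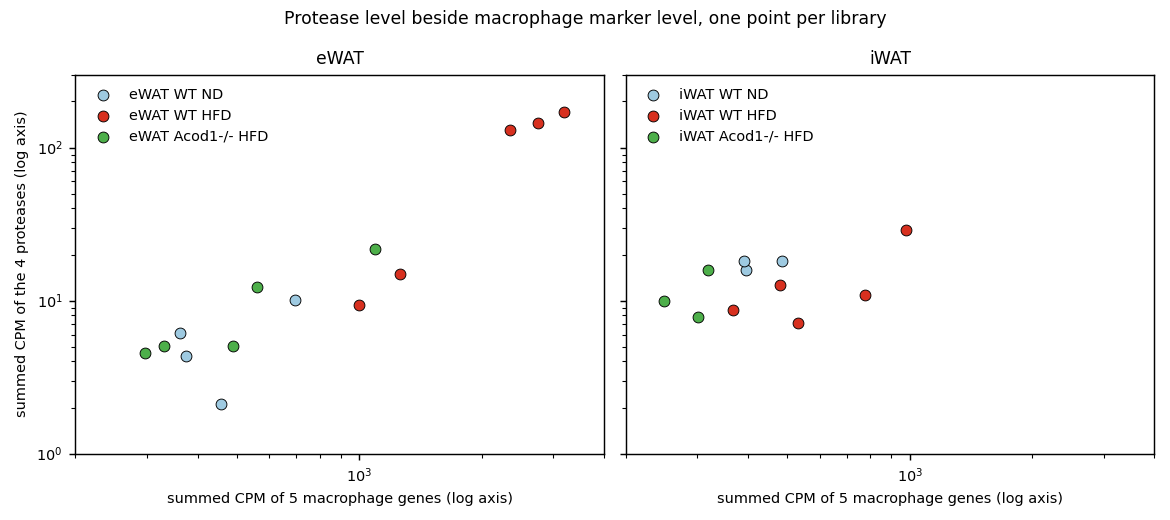
Summed CPM of the 4 proteases against the summed CPM of 5 macrophage genes, one point per library, in eWAT (left) and iWAT (right), with both axes logarithmic. In eWAT the 3 WT HFD libraries at 131 CPM or more of proteases also have the highest macrophage sums (2345 to 3199 CPM), and the other 11 libraries lie at 1262 CPM or below.

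The genes whose pattern was most like the mean standardised profile of the 6 tested members, by the lower of the Pearson correlations over 14 eWAT and 11 iWAT libraries, were Pak1 (r = 0.82 in eWAT and 0.78 in iWAT), Clic1, Cyba, Oasl1, Diaph3, Msr1, Tlr13, Ctsh, Rtp4 and Snx8, out of 14122 genes ranked. The lower r of the 10 ran from 0.73 to 0.78. The profile also held Kit and Hdc. In eWAT their r with the proteases and IgE receptor chains ran from -0.33 to -0.12 and from 0.16 to 0.36. The points share their libraries with the members, and those of eWAT include the 3 libraries in which the proteases were high. Pak1, a kinase acting on the cytoskeleton, averaged 20.6 ± 10.8 CPM in WT HFD eWAT (SD, n = 5), 6.95 ± 3.54 in ND (n = 4) and 4.52 ± 3.42 in Acod1-/- (n = 5). Cyba, a subunit of the phagocyte NADPH oxidase, and Msr1, a scavenger receptor of macrophages, were among the 10.

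By the GRCm38 annotation (GENCODE vM21) the members lay on 7 chromosomes, Cpa3 at chr3:20215620-20242181, Tpsb2 at chr17:25366305-25369098, Kit at chr5:75574916-75656722, Ms4a2 at chr19:11615523-11623719, Hdc at chr2:126593667-126619299 and Fcer1a at chr1:173221284-173227214, with Cma1 (chr14:55941451-55944675) and Mcpt4 (chr14:56059629-56062313) in 1 cluster of protease genes. Near-identical copies could share reads for few of them, since 5.38% of the 50-base windows in Cma1 transcripts occurred in another gene (Gm48934), 5.48% in Mcpt4 (mostly Cma2), 2.10% in Ms4a2 (Ms4a4b), 0.141% in Hdc and 0% in Cpa3, Tpsb2, Kit and Fcer1a. Cma2 and Mcpt9 did not exceed 0.142 CPM in any library.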

How the data were processed

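RNA from snap-frozen fat was made into directional mRNA libraries. Per the labels and the study's methods, the authors trimmed reads with cutadapt, aligned them to mm10 (GRCm38) with STAR and deposited, for each library, counts of reads per gene, the cDNA length and FPKM values, which followed from counts and lengths to within 0.0005. The counting program and its use of strand are not given in the sources used here. Rows naming no gene (8.48% to 13.4% of reads) were left out of library sizes. Groups came from the labels. Symbols came from GENCODE vM21 for 54723 of 54752 IDs.

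Deposited counts were tested with edgeR 4.0.16 (quasi-likelihood, TMM scaling, genes averaging 1 CPM or more), in a fit of the 3 groups of a depot for diet and genotype and of all 6 groups for depots and interactions, with Benjamini-Hochberg adjustment over all genes tested. Each SE was derived from the test, as the absolute log2 fold change divided by the square root of the F statistic. CPM values share 1 TMM scaling over 25 libraries. Single members were also compared by two-sided exact permutation tests of mean CPM. A count of 0 was taken to allow up to 3 reads, which covers counting error only. All 8 members were named, with genes of the lists, Acod1 and the 10 most alike genes. One marker gene of the lymphocyte list is not reported here and was left out of its sums. Members and lists were chosen with earlier results of these data known. Data were simulated for the eWAT diet comparison with 200 of 14936 genes changed, whereas 51.8% of genes were called in the real data. In the simulation 94.7% of 8-fold and 53.1% of 2-fold changes were recovered and 12.3% of calls were false. The same simulation for eWAT genotype recovered 94.7% of 8-fold and 59.6% of 2-fold changes, with 13.5% of calls false. For the other comparisons between pairs of groups, 2.45% to 9.88% of simulated calls were false. These rates need not hold where more genes change. DESeq2 1.42.0, other filters, the replicate number and header range as terms and leaving out libraries were alternatives. Leaving out the libraries rich in epididymis RNA, permutation tests of log2 CPM for all members and CPM without TMM were added after the data were seen.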

Additional observations from a re-analysis of the deposited data

Results flagged for a closer look

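Of 32 sets of values (each of the 8 genes in each of the 4 groups of 4 or 5 libraries), 5 had 1 library far from the rest by Dixon's criterion, where chance gives about 1 in 20 for normally distributed values. Untransformed CPM was used and all 5 were the highest value of their group, so that rate need not hold here. The 5 came from only 2 libraries, and the genes are not independent of each other. In eWAT Acod1-/- library 5, Cpa3 was 3.71 CPM against 0.973 CPM in the next highest of the group, and Fcer1a was 0.763 CPM against 0.161 CPM. This library also held 940 CPM of the epididymis gene Crisp1 and had the highest macrophage sum of its group (1092 CPM), and their part in these values was not tested. In iWAT WT HFD library 4, Tpsb2 was 8.52 CPM against 2.73 CPM in the next, Cma1 6.37 CPM against 2.46 CPM and Fcer1a 0.492 CPM against 0.0602 CPM.

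The response to HFD differed between the depots for 5 members in edgeR's interaction test, where 29% of all genes tested were called. Given as iWAT minus eWAT on the log2 scale, the difference was -4.44 for Cpa3 (adjusted p = 0.0143), -4.14 for Cma1 (adjusted p = 0.0114), -4.81 for Mcpt4 (adjusted p = 0.00137), -4.21 for Tpsb2 (adjusted p = 0.00329) and 1.99 for Hdc (adjusted p = 0.0615). The value for Hdc passed 0.1 without any 1 of 6 libraries, eWAT ND 1 and 4, iWAT ND 1 and 3 and iWAT WT HFD 1 and 2 (adjusted p from 0.103 to 0.145). The iWAT ND libraries in this interaction test held lymphocyte RNA, whose part was not tested.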

How the results depend on the processing

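Over all settings other than those added after the data were seen, 1374 member fold changes kept their direction and their side of the threshold, 17 lost the call, 10 gained it and 26 changed sign. Requiring 1 CPM in every library left 2 members tested in eWAT diet and genotype, 4 in iWAT diet and 1 in each fit across depots, with 0 called in eWAT diet, eWAT genotype, iWAT diet, depot on ND and diet by depot, and 1 for depot in WT HFD. All 4 proteases fell below 1 CPM in at least 1 eWAT library, so none was tested in eWAT or across depots. The counts of 0 there are therefore not results for the proteases. Hdc fell below 1 CPM in an iWAT library and was not tested in iWAT diet. The single iWAT diet call (Hdc) went to 0 at an adjusted p under 0.05, with no filter and with the header range as a term. Genotype by depot gave 1 member, not 0, with DESeq2 (Tpsb2, 3.06) and with the replicate block (Cpa3, 3.98).

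The labels give same-numbered libraries no shared source, so they were not taken as pairs. Correlations of their deviations ran from -0.17 to 0.49. The same number was the best partner in 4 of 5 eWAT genotype pairs, 3 of 5 depot pairs in WT HFD and 2 of 3 on ND. It was so in 2 of 4 pairs for eWAT diet and 1 of 3 for iWAT diet, iWAT genotype and depot in Acod1-/-. Whether same-numbered libraries share a mouse was not tested, and the main depot and interaction tests treated them as independent. With the replicate block 4 members were called in eWAT diet and 4 in eWAT genotype, where the main fits called 51.8% and 19.9% of all genes. Also with the block, Cpa3 (0.29) and Tpsb2 (0.084) for iWAT genotype and Hdc (0.038) for depot in WT HFD changed sign. Cpa3 for iWAT genotype was 0.056 with the range term and 0.059 by permutation, Hdc for depot in WT HFD 0.039 by permutation, and Mcpt4 for depot in Acod1-/- -0.0010 with the range term. None of these was called, and the cause was not tested.

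Leaving out 1 library, members called ranged from 4 to 5 in eWAT diet, depot in WT HFD and diet by depot, from 0 to 3 in iWAT diet and from 0 to 2 in genotype by depot (Cpa3 and Tpsb2 without eWAT Acod1-/- 5). In the same order, the main fits called 51.8%, 18.6%, 29%, 50.1% and 0.00665% of all genes. The genotype by depot fit without eWAT Acod1-/- 5 itself called 224 of 15042 genes. Uncalled values that changed sign ranged, for depot in Acod1-/-, from -0.089 to 0.91 (Cma1), -0.14 to 1.38 (Cpa3), -0.32 to 0.47 (Mcpt4), -0.012 to 0.60 (Tpsb2) and -0.182 to 0.0499 CPM (Fcer1a); for iWAT genotype from -0.26 to 0.61 (Cma1), -0.65 to 0.40 (Cpa3), -0.56 to 0.13 (Tpsb2) and -0.0875 to 0.10 CPM (Fcer1a); for iWAT diet from -0.74 to 0.082 (Cma1) and -0.128 to 0.00710 CPM (Ms4a2); for depot on ND from -0.054 to 0.38 (Kit), -0.0156 to 0.324 CPM (Fcer1a) and -0.0266 to 0.109 CPM (Ms4a2); and for depot in WT HFD from -0.31 to 0.32 (Hdc).

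Over all genes, calls moved by over 1.5 times in eWAT diet (7730 against 5139 with the range term), eWAT genotype (2976 against 1717 at 0.05) and iWAT genotype (0 against 1072 with DESeq2 and 2157 within 1 header range).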
